A study of Mus musculus with 12 samples.

Results

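Interferon-stimulated genes encode the proteins through which cells restrict viruses and other intracellular pathogens. A set of 44 such genes, listed by symbol, was followed through ribosome profiling and total RNA sequencing of B16F10 cells, a mouse melanoma line. All 44 matched a single row each among the 55487 genes of the count tables. They comprised 9 genes of the ISG15 system and the IFIT family, 8 interferon-induced GTPases, 9 antiviral effectors, 4 genes of the PARP and DTX3L group, 11 other interferon-stimulated genes and 3 genes for IRF1 and the PA28 proteasome activator. The cells carried a control short hairpin RNA (shCtr, labelled WT) or hairpin OSGEP#2 against Osgep (shOSGEP, labelled KD OSGEP), with 3 replicates of each. Each genotype had 3 libraries of ribosome-protected fragments (RPF, or footprints) and 3 of RNA without footprinting, so that 12 libraries fell into 4 groups. The latter are called total RNA here, although the labels give their molecule as polyA RNA, and the preparation of these libraries is not given in the sources used here. Both genotypes were grown in the same medium, and cycloheximide (10 µg/ml, 5 minutes) was given before lysis to hold ribosomes in place. The study's methods describe delivery of its hairpins by lentivirus with polybrene, followed by selection with puromycin. The knockdown rests on a single hairpin in a single line, and the study's methods describe independent transductions for its experiments, although the labels do not tie a library to one of them.

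Type I interferons bind a receptor that activates the kinases JAK1 and TYK2, and a transcription factor complex that contains IRF9 then binds the interferon-stimulated response element (ISRE) in promoters. Interferon gamma acts mainly through a separate promoter element, the gamma-activated site (GAS). Cells make type I interferon after sensors such as RIG-I and MDA5 detect RNA and signal through MAVS, TBK1 and IRF3. OSGEP is the enzyme of the KEOPS complex, through which a subset of tRNAs receives the threonylcarbamoyl modification of adenosine beside the anticodon. Footprints per transcript, the ratio of RPF to total RNA, are referred to as translational efficiency.

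Total RNA libraries held 46.7 to 81.1 M counts (M for mega), and RPF libraries held 12.9 to 40.3 M, of which 4.42 to 17.0 M fell on protein-coding genes. The RPF library of shOSGEP replicate 1 had the fewest protein-coding counts and the largest share of ribosomal RNA, at 67.7% against 27.7% to 44.8% in the other 5. Osgep RNA in shOSGEP was 4.25% of the shCtr level in replicate pair 1, 44% in pair 2 and 44.4% in pair 3. Osgep footprints were 63.1%, 52.3% and 50.1% of the paired shCtr level. The fitted Osgep change was -1.65 ± 0.77 (log2, SE) in total RNA and -0.84 ± 0.39 in RPF, with unadjusted p of 0.069 in each and adjusted p of 0.975 and 0.9998 in edgeR. The summed level of 7 melanocyte genes (Pmel, Mlana, Tyr, Tyrp1, Dct, Mitf and Sox10), which mark the cell type, was 2655 CPM in total RNA of shOSGEP replicate 1 and 9665 to 16836 CPM in the other 5. CPM are counts per mega-count of library, with library sizes scaled by TMM factors. Summed levels of 9 leukocyte genes were 2.79 to 6.07 CPM across the 6 total RNA libraries, with Itgam, Cd3e and Ncr1 at 0 in all of them. The sum was lowest in shOSGEP replicate 1, where Cd68 was at 0.775 CPM against 2.34 to 4.86 CPM elsewhere, but 4 of the 9 genes were highest there, among them Csf1r with 33 reads against 0 to 6 and Ptprc with 5 against 0. Of 5 fibroblast genes (Col1a1, Col1a2, Pdgfra, Dcn and Lum) the sum was 25.3 CPM in that library and 6.51 to 10.3 CPM in the other 5, with Col1a1 (15.3 CPM) and Pdgfra (8.65 CPM) making up most of it and Col1a2 at its lowest (1.25 CPM). The library labelled shOSGEP replicate 1 therefore stood apart from the other 5 in total RNA before any interferon-stimulated gene was considered, and the main fitted changes and counts are given below with and without it. The part of these features in the results below was not tested.

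**Figure D1:**
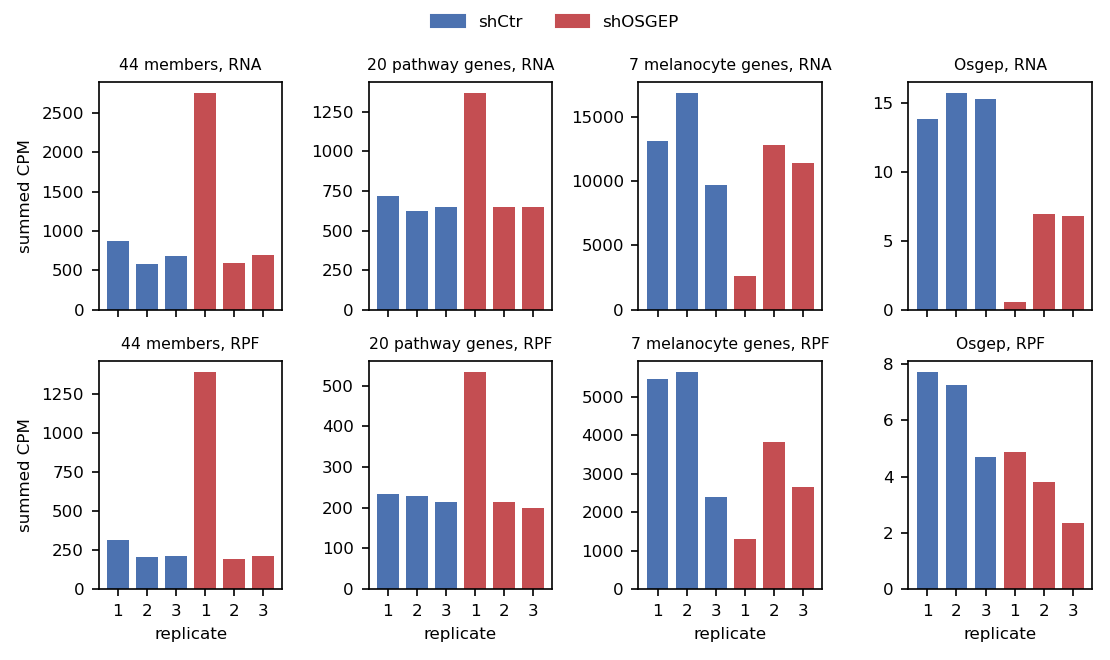
Bars give the summed CPM (y axis, starting at 0) of the 44 interferon-stimulated genes, 20 genes of the interferon pathway, 7 melanocyte genes and Osgep alone in each shCtr (blue) and shOSGEP (red) replicate, with total RNA above and footprints below. The 44 genes reached 2750 CPM in total RNA of shOSGEP replicate 1 and 586 to 873 CPM in the other 5 libraries, and the melanocyte genes were lowest in that library.

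The 44 genes together were high in a single library of each assay. Their summed level in total RNA was 873, 586 and 688 CPM in shCtr replicates 1, 2 and 3 and 2750, 597 and 692 CPM in shOSGEP replicates 1, 2 and 3. In footprints it was 316, 206 and 214 CPM in shCtr and 1389, 190 and 212 CPM in shOSGEP. Relative to the paired control, the total RNA sums of shOSGEP were at 3.15, 1.02 and 1.01 and the footprint sums at 4.4, 0.919 and 0.99, so that replicates 2 and 3 were close to their controls. In bulk samples, a higher level in every cell and a high level in a few cells cannot be told apart.

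Changes were next computed within replicate pairs, as log2 CPM of the shOSGEP library minus that of the shCtr library with the same number. Over the 44 genes, whether or not they passed the filter on low counts, the median change in total RNA was 2.76 in pair 1, 0.09 in pair 2 and 0.07 in pair 3. Of the 44, 43 were higher in shOSGEP in pair 1, 25 in pair 2 and 25 in pair 3. In footprints the median was 2.63, 0.08 and 0.24, with 42, 24 and 29 genes higher. Over all 14516 genes tested in total RNA the medians were 0.01, 0.01 and 0.00.

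The filter kept 40 of the 44 genes in total RNA, leaving out Iigp1, Ddx60, Ifi44 and Epsti1, and 40 in RPF, leaving out Iigp1, Ddx60, Xaf1 and Epsti1. In total RNA, 35 of the 40 were higher by over 1 (log2) in pair 1, where 10.7% of all genes tested met this limit. In pair 2 it was met by 6 genes (Isg15, Ifit1, Gbp2, Gbp7, Mx1 and Xaf1), against 2.78% of all genes, and in pair 3 by Gbp7 alone, against 3.4%. In footprints 37 of the 40 met it in pair 1, against 12.8% of all genes. There, 4 genes (Ifit3, Gbp7, Isg20 and Sp100) met it in pair 2 against 4.82%, and Mx2 alone in pair 3 against 6.76%. In pair 3 the share of the 40 genes was 2.5% in each assay, which rests on 1 gene and is too small a count to set apart from the shares of all genes. All 6 genes past the limit in pair 2 of total RNA were under 4 CPM in both libraries of that pair.

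**Figure D2:**
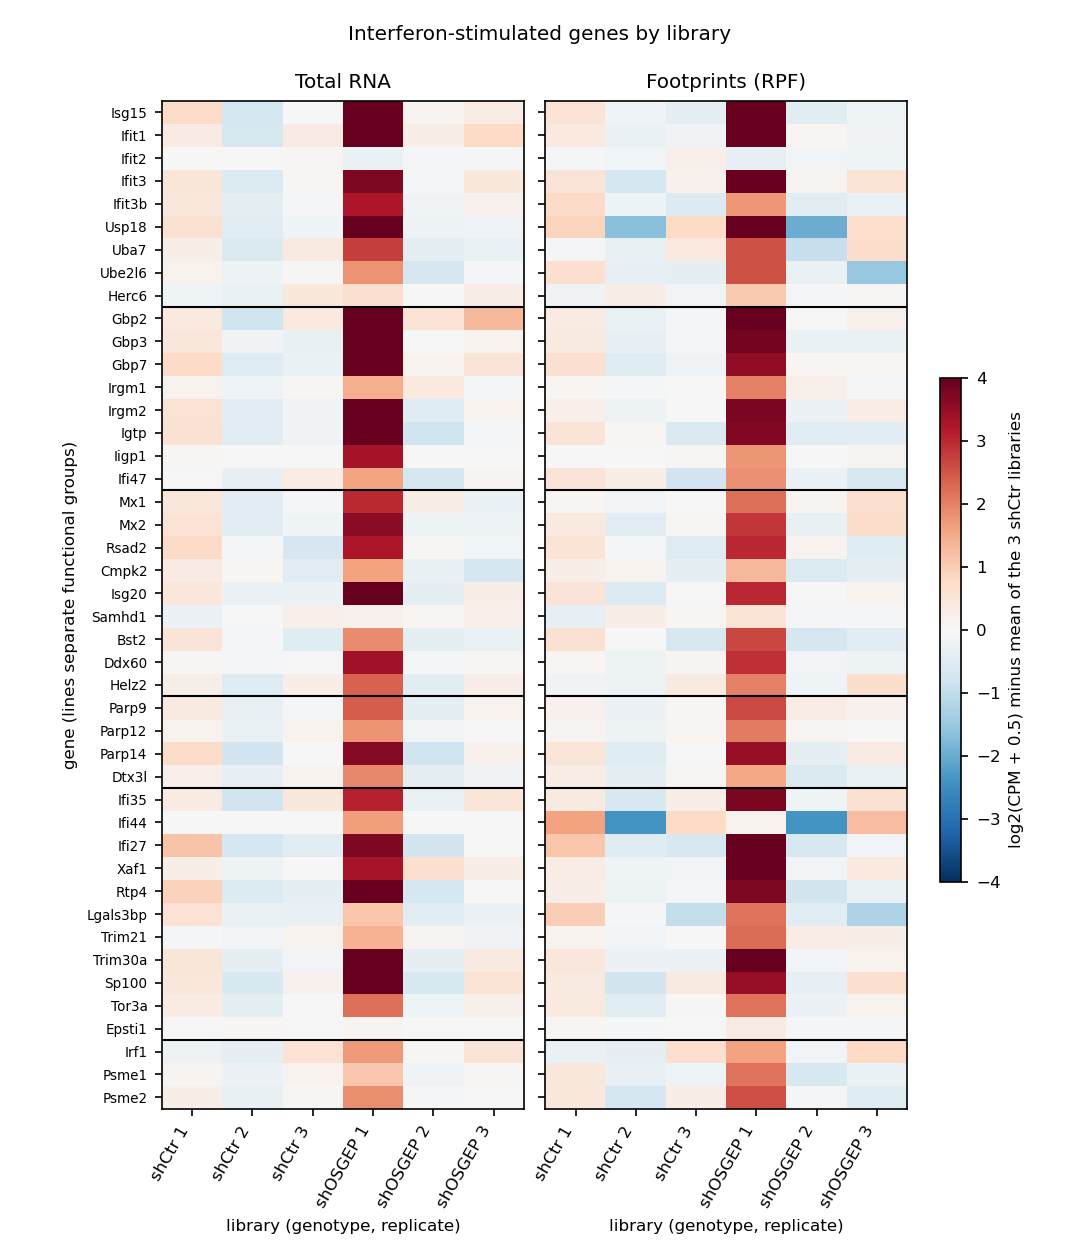
Colour gives log2(CPM + 0.5) minus the mean of the 3 shCtr libraries for each of the 44 genes (rows, with lines between functional groups) in the 6 total RNA and 6 RPF libraries (columns), limited to 4 in either direction. The column of shOSGEP replicate 1 was high in nearly every row of both assays, with 42 of 44 genes at their highest there in total RNA and 42 of 44 in RPF.

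In total RNA, 38 of the 40 genes that passed the filter had their highest value of 6 libraries in shOSGEP replicate 1, as did 36.4% of all genes tested. In footprints it was again 38 of 40, against 30.6%. The exceptions were Ifit2 and Samhd1 in total RNA and Ifit2 and Ifi44 in RPF. Genes higher in shOSGEP in all 3 pairs numbered 14 of 40 in total RNA, where 17.7% of all genes did the same, and 17 of 40 in RPF, where 15.6% did. These counts include pair 1, where 39 of 40 in total RNA and 38 of 40 in RPF were higher. Over all genes tested, 7319 of 14516 and 6673 of 13529 were higher in pair 1. The counts therefore do not measure pairs 2 and 3 alone. In total RNA, 25 of 40 were higher in pair 2 and 24 in pair 3, and in RPF 22 and 27. The shCtr and shOSGEP groups did not overlap, with shOSGEP higher, for Gbp2 and Xaf1 in total RNA (2 of 40, against 4% of all genes). In RPF the same held for Mx1 and Trim21 (2 of 40, against 2.43%), so that no gene was separated in both assays.

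No interferon-stimulated gene passed the test across replicates. With edgeR's quasi-likelihood test, 0 of 40 genes had an adjusted p under 0.05 in total RNA, where 0% of all genes tested did, and 0 of 40 in RPF, where 0% did. At an unadjusted p under 0.05, 8 of the 40 genes were higher in total RNA (Isg15, Ifit1, Usp18, Gbp2, Gbp3, Gbp7, Xaf1 and Trim30a), against 1.52% of all genes. In RPF 4 genes (Isg15, Ifit3, Gbp2 and Trim30a) were higher at this limit, against 0.754% of all genes. DESeq2 also called 0 of the 40 in either assay, with 4 higher at an unadjusted p under 0.05 in total RNA, against 2.59% of all genes, and 9 in RPF, against 1.34%. The median fitted change over the 40 genes was 1.83 (log2) in total RNA, with 39 higher, and 1.64 in RPF, with 38 higher, beside medians of 0.02 and 0.05 over all genes tested.

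These counts and medians depended on single libraries. Without shOSGEP replicate 1 the median over the genes kept was -0.07 in total RNA, with 12 of 40 higher, and -0.09 in RPF, with 13 of 39 higher, and 0 had an unadjusted p under 0.05 in either assay. Without both genotypes of replicate 1 it was 0.19 (28 of 40 higher) in total RNA, with 1 gene at an unadjusted p under 0.05, and 0.14 (23 of 38 higher) in RPF, with 0. With a replicate block the median was 1.00 in total RNA and 0.89 in RPF, where 2 and 3 genes were higher at an unadjusted p under 0.05, against 2.51% and 2.54% of all genes. That number was 0 in each assay without any single shCtr library, against 0.397% to 1.05% of all genes in total RNA and 0.377% to 0.663% in RPF. Without shOSGEP replicate 2 it was 25 in total RNA (5.26% of all genes) and 21 in RPF (2.55%), and without shOSGEP replicate 3 it was 19 (2.21%) and 16 (1.28%). When all genes with at least 1 count were kept, 15 of the 44 passed an adjusted p of 0.05 in RPF with edgeR. Of the 33633 genes then tested 0.681% passed, and 0 of the 44 passed in total RNA. Among the 15 were Isg15 (adjusted p of 2.6e-15) and Gbp2 (8.9e-10), each high in a single RPF library. Their footprints were at 58.7 and 36.6 CPM in shOSGEP replicate 1 and at 0.495 to 1.46 and 0.546 to 1.07 CPM elsewhere. The fit without the filter was not repeated without that library.

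**Figure D3:**
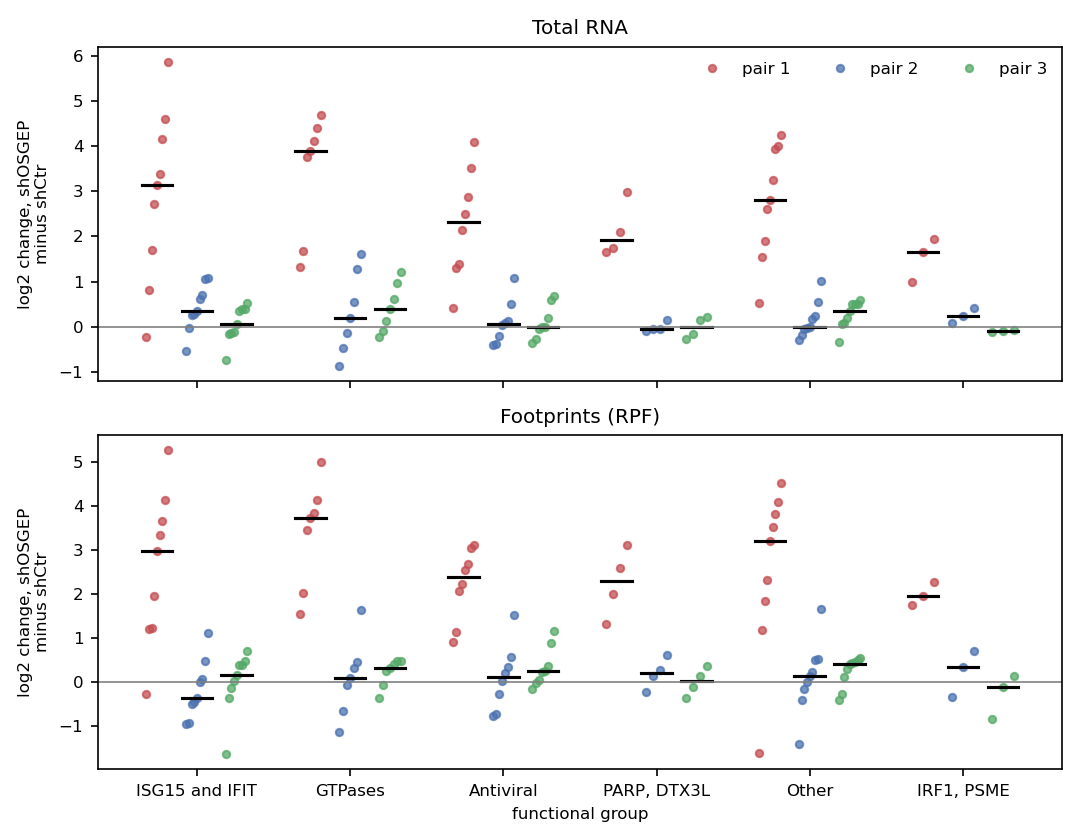
Each point is a gene that passed the filter, the y axis gives its log2 change (shOSGEP minus shCtr) within pair 1 (red), pair 2 (blue) or pair 3 (green), and black bars give the median of each functional group, for total RNA above and footprints below. In pair 1 the group medians in total RNA lay between 1.66 and 3.89, and in pairs 2 and 3 between -0.08 and 0.40.

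Sequences upstream of these genes were examined for the letters of the ISRE and the GAS. The genes were listed as interferon-stimulated, so a high share of ISRE matches can follow from the list itself, whatever these libraries show. Promoters from 250 bases before to 50 bases after the RefSeq transcription start (GRCm38.p6) were found for 35 of the 44 genes. The ISRE core GAAANNGAAA, searched on both strands, was present in 16 of the 35 (45.7%), against 3.99% of 27025 genes with a promoter. It was present in 4 of 8 genes of the ISG15 and IFIT group, 6 of 7 GTPases, 3 of 7 antiviral effectors, 2 of 8 other genes, 1 of 3 genes of the IRF1 and PA28 group and 0 of 2 of the PARP group. The GAS core TTCNNNGAA, which reads the same on both strands, was present in 9 of the 35 (25.7%), against 9.55% of all genes. A match to these letters is a description of the sequence and no evidence of binding. For each ISG15, IFIT and GTPase gene with an ISRE match, the window around 1 match is shown, since these groups are compared below, 5′ to 3′ on the strand of the gene, with the match in capitals and 10 bases on each side.

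Isg15, chr4:156200865-156200906, minus strand, match from 78 bases before the start: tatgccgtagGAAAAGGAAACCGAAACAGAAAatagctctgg
Ifit1, chr19:34640794-34640823, plus strand, 85 bases before: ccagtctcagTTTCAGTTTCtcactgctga
Ifit3, chr19:34583363-34583392, plus strand, 156 bases before: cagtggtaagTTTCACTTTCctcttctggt
Ifit3b, chr19:34607759-34607788, plus strand, 188 bases before: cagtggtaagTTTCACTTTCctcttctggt
Gbp2, chr3:142620594-142620623, plus strand, 59 bases before: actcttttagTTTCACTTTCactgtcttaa
Gbp3, chr3:142559989-142560024, plus strand, 45 bases before: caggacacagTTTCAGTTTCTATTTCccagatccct
Gbp7, chr3:142530273-142530302, plus strand, 53 bases before: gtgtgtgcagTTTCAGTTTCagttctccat
Irgm1, chr11:48871425-48871460, minus strand, 30 bases before: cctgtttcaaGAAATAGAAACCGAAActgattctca
Irgm2, chr11:58214903-58214932, plus strand, 64 bases before: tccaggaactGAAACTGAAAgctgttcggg
Igtp, chr11:58199512-58199541, plus strand, 34 bases before: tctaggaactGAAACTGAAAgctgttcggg

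Isg15 held 3 overlapping matches in its window, and Gbp3 and Irgm1 held 2 each. Ifit1 had another match, beginning 104 bases before the start, outside the capitals shown. The windows of Ifit3 and Ifit3b were identical, at different distances from the start, and a second ISRE match 34 bases further on was also shared by both genes. The promoter of Ifit2 held no match to these ISRE letters and 1 match to the GAS letters, beginning 241 bases before the start.

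ISG15 is a ubiquitin-like protein that is attached to other proteins by the enzymes UBA7, UBE2L6 and HERC6 and removed by USP18, and IFIT proteins bind viral RNA. The pair 1 median of these 9 genes was 3.14 in total RNA and 2.96 in RPF. Isg15 (ENSMUSG00000035692, chr4:156199424-156200818, minus strand) was at 3.37, 0.955 and 1.80 CPM in total RNA of shCtr replicates 1, 2 and 3 and at 82.1, 2.02 and 2.38 CPM in shOSGEP. Each shOSGEP replicate was above its paired control, but shOSGEP replicates 2 and 3 lay within the range of shCtr. In RPF it was at 1.46, 0.727 and 0.521 CPM in shCtr and 58.7, 0.495 and 0.700 CPM in shOSGEP. The fitted change was 3.82 ± 1.52 (SE, n = 3 per group, unadjusted p of 0.041, adjusted p of 0.975 in edgeR) in total RNA and 4.48 ± 1.85 (unadjusted p of 0.045) in RPF. Without shOSGEP replicate 1 the fitted changes were 0.095 and -0.59.

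Ifit1 (ENSMUSG00000034459, chr19:34640871-34650009, plus strand) was at 3.74, 1.68 and 3.72 CPM in total RNA of shCtr and 67.2, 3.58 and 5.41 CPM in shOSGEP. In RPF it was at 1.52, 0.788 and 0.901 CPM in shCtr and 27.7, 1.11 and 0.907 CPM in shOSGEP. It was higher in shOSGEP in all 3 pairs of both assays, with changes of 4.15, 1.08 and 0.54 (log2) in total RNA and 4.13, 0.46 and 0.01 in footprints. The fitted changes were 3.06 ± 1.15 and 3.20 ± 1.35 (unadjusted p of 0.033 and 0.050 in edgeR), and 0.55 and -0.090 without shOSGEP replicate 1. Ifit3 showed the same order, with 4.07, 1.73 and 2.91 CPM in total RNA of shCtr and 42.7, 2.66 and 3.84 CPM in shOSGEP. Reads of Ifit3 and its close paralogue Ifit3b, which was at 13.3 CPM in total RNA of shOSGEP replicate 1 and 0.63 to 1.48 CPM elsewhere, may have been split between both genes.

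Ifit2 (ENSMUSG00000045932, chr19:34550694-34576419, plus strand), a neighbour of these genes and also an RNA-binding IFIT protein, had another pattern. It had the highest level per length of its group, with a shCtr mean of 17.5 CPM per kilobase of exon in total RNA, and was at 67.5, 67.7 and 71.5 CPM in shCtr and 57.7, 66.1 and 66.1 CPM in shOSGEP. Footprints were 31.2, 30.4 and 37.6 CPM in shCtr and 25.9, 30.2 and 28.9 CPM in shOSGEP. It was lower in shOSGEP in every pair of both assays, by a fitted -0.12 ± 0.13 in total RNA and -0.22 ± 0.23 in RPF (unadjusted p of 0.39 and 0.37), which did not exceed the replicate error, and by -0.067 and -0.17 without shOSGEP replicate 1. It was the single gene of the 40 with a negative change in pair 1 of total RNA.

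Usp18 (ENSMUSG00000030107, chr6:121245906-121270917, plus strand), the protease that removes ISG15 and dampens receptor signalling, had the largest pair 1 change of the 40 genes in total RNA. It was at 0.868, 0.162 and 0.289 CPM in shCtr and 52.1, 0.284 and 0.304 CPM in shOSGEP, a 57.9-fold difference in pair 1 on the scale of log2 CPM. Its footprints were 3.83, 0.243 and 3.55 CPM in shCtr and 39.1, 0.0929 and 3.21 CPM in shOSGEP, so that the libraries of replicate 3 held footprints with little RNA. Its fitted change was 5.30 ± 2.13 in total RNA (unadjusted p of 0.042 in edgeR) and 2.45 ± 1.70 in RPF (unadjusted p of 0.19), but -0.60 and -0.64 without shOSGEP replicate 1. Its exons share 124 bases with Gm44148, a long noncoding RNA on the opposite strand, and whether counting used strand is not given in the sources used here.

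The enzymes of ISG15 conjugation were less far apart. Uba7 was at 3.08, 1.57 and 3.39 CPM in total RNA of shCtr and 20.3, 1.91 and 2.03 CPM in shOSGEP. Ube2l6 was at 11.5, 9.01 and 10.7 CPM in shCtr and 37.4, 6.25 and 9.77 CPM in shOSGEP. Herc6, the ligase, was at 31.9, 29.7 and 48.5 CPM in shCtr and 56.4, 35.8 and 43.2 CPM in shOSGEP, so that shOSGEP replicate 1 exceeded the highest control by a small margin. In total RNA the change was -0.73 for Uba7 in pair 3 and -0.52 for Ube2l6 in pair 2 (log2), and in footprints that of Ube2l6 was -1.64 in pair 3.

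**Figure D4:**
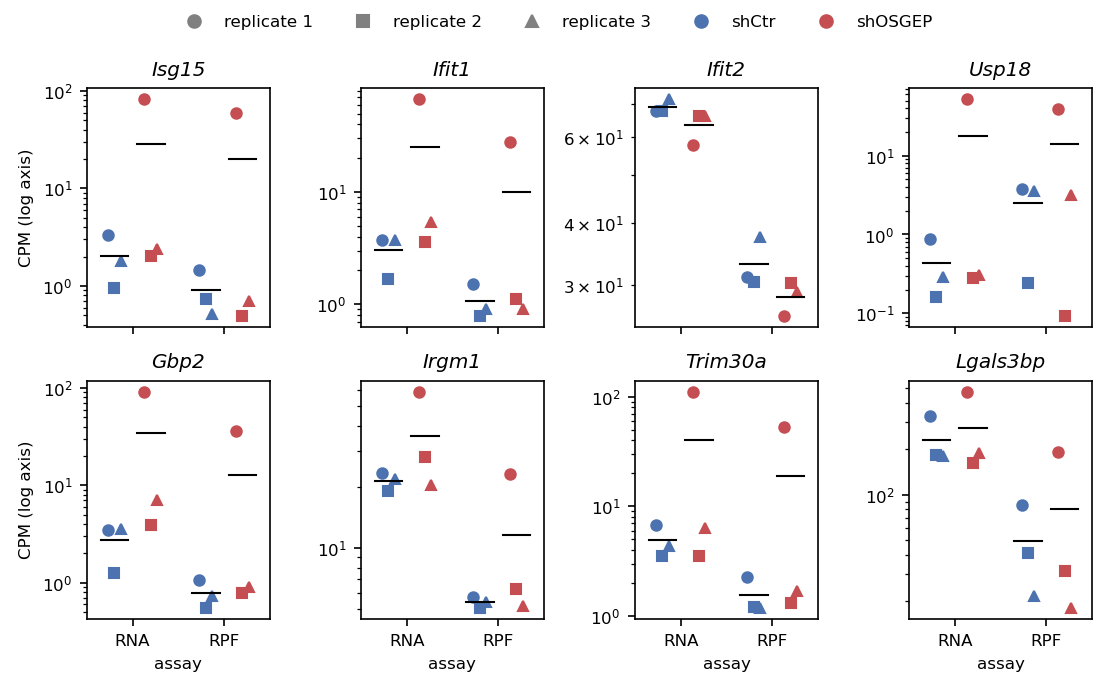
Points give CPM (log axis, with its own range in each panel) of 8 genes in shCtr (blue) and shOSGEP (red) libraries, with symbols for replicates 1, 2 and 3 and black lines for the mean of 3. In every panel but that of Ifit2 the circle of shOSGEP replicate 1 was the highest point of its assay, and the remaining shOSGEP points lay among or close to the controls.

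Guanylate-binding proteins (Gbp2, Gbp3 and Gbp7) and immunity-related GTPases (Irgm1, Irgm2, Igtp, Iigp1 and Ifi47) take part in defence against pathogens that live in vacuoles inside cells. This group had the highest pair 1 medians, 3.89 in total RNA and 3.72 in RPF over the 7 genes that passed the filter. Gbp2 (ENSMUSG00000028270, chr3:142620602-142638008, plus strand) was at 3.5, 1.26 and 3.53 CPM in total RNA of shCtr and 91.6, 3.95 and 6.99 CPM in shOSGEP. All 3 shOSGEP values were above all 3 shCtr values, by 4.70, 1.62 and 0.98 (log2) within pairs. In RPF it was at 1.07, 0.546 and 0.721 CPM in shCtr and 36.6, 0.774 and 0.907 CPM in shOSGEP, where the groups overlapped. Its fitted change was 3.63 ± 1.25 in total RNA, with the smallest unadjusted p of the 40 genes (0.023, adjusted p of 0.975 in edgeR), and 4.01 ± 1.55 in RPF (unadjusted p of 0.036, adjusted p of 0.9998). Without shOSGEP replicate 1 these were 0.97 and 0.099.

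Gbp7 was higher in all 3 pairs of both assays, at 1.5, 0.306 and 0.475 CPM in total RNA of shCtr and 20.6, 0.788 and 1.15 CPM in shOSGEP. Its exons share 637 bases with the processed pseudogene Gm43802 on the same strand. Gbp3 reached 32.7 CPM in total RNA of shOSGEP replicate 1 and 1.07 to 2.18 CPM in the other 5 libraries.

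Irgm1 (ENSMUSG00000046879, chr11:48861968-48871683, minus strand), which controls the other immunity-related GTPases, had the highest level per length of the group, with a shCtr mean of 3.7 CPM per kilobase. It was at 23.4, 19.1 and 22.0 CPM in total RNA of shCtr and 59.1, 28.1 and 20.5 CPM in shOSGEP, a pair 1 change of 1.33, and its fitted change of 0.74 ± 0.38 had an unadjusted p of 0.095 in edgeR and was 0.17 without shOSGEP replicate 1. Irgm2 was at 2.59, 1.04 and 1.36 CPM in shCtr and 55, 0.956 and 1.81 CPM in shOSGEP. Igtp was at 1.33, 0.378 and 0.599 CPM in shCtr and 23.6, 0.194 and 0.659 CPM in shOSGEP, with pair 2 changes of -0.86 in total RNA and -1.13 in footprints. Irgm2 and Igtp share 162 bases of exon on the same strand, so their counts are not fully separate. Iigp1 had 295 reads in total RNA of shOSGEP replicate 1, 1 read in shCtr replicate 1 and 0 in the other 4 libraries, and 15 RPF reads in shOSGEP replicate 1 against 0 to 2 elsewhere. At a count of 0, the upper limit from 3 counts was 0.0388 to 0.062 CPM per total RNA library and 0.0601 to 0.248 CPM per RPF library, covering counting error only.

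The ISG15 and IFIT genes were compared with the GTPases pair by pair. The median of the ISG15 and IFIT group minus that of the GTPases in total RNA was -0.75, 0.15 and -0.33, and that in RPF was -0.75, -0.45 and -0.15. In 5 of these 6 values the GTPases had the higher median, but the ranges of both groups overlapped in every pair, from -0.23 to 5.86 and from 1.33 to 4.70 in pair 1 of total RNA. The difference between the groups was not tested.

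Among the antiviral effectors the pair 1 median was 2.32 in total RNA and 2.38 in RPF, and in pairs 2 and 3 of total RNA it was 0.06 and 0.00. Rsad2 (viperin, ENSMUSG00000020641, chr12:26442746-26456452, minus strand), which makes an inhibitor of viral RNA polymerases, was at 18.8, 10.3 and 6.66 CPM in total RNA of shCtr and 107, 11.3 and 10.0 CPM in shOSGEP. It was higher in shOSGEP in all pairs of both assays, with RPF of 5.69, 3.58 and 2.48 CPM in shCtr and 33.5, 4.12 and 2.54 CPM in shOSGEP. Isg20, an exonuclease, was at 1.57, 0.775 and 0.785 CPM in total RNA of shCtr and 27.3, 0.672 and 1.28 CPM in shOSGEP, with a fitted change of 3.22 ± 1.38 (unadjusted p of 0.053 in edgeR), and of -0.11 without shOSGEP replicate 1.

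Bst2 (tetherin), which holds budding virus at the cell surface, was at 28.7, 19.4 and 14.2 CPM in total RNA of shCtr and 75.5, 15.0 and 16.4 CPM in shOSGEP. Helz2, a helicase and coactivator, was at 24.8, 14.7 and 25.7 CPM in shCtr and 110, 15.6 and 25.7 CPM in shOSGEP. Samhd1, which degrades deoxynucleotides, was among the genes closest to level, at 45.2, 54.1 and 60.9 CPM in shCtr and 60.2, 55.8 and 61.1 CPM in shOSGEP, with a fitted change of 0.14 ± 0.16 (unadjusted p of 0.39), and 0.12 without shOSGEP replicate 1. Mx1 and Mx2, genes of the dynamin-like GTPase family, reached 10.3 and 11.1 CPM in total RNA of shOSGEP replicate 1 and were at 1.38 CPM or less in the other 5 libraries. Mx2 is annotated as a polymorphic pseudogene. The mitochondrial kinase Cmpk2 was at 33.2 CPM in that library and 6.37 to 13.5 CPM elsewhere. Ddx60, a helicase, had 311 total RNA reads in shOSGEP replicate 1 and 0 to 2 in the other 5 libraries.

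PARP9 and DTX3L act as a complex in ADP-ribosylation and ubiquitination, and PARP12 and PARP14 transfer single ADP-ribose units. The pair 1 changes of these 4 genes were 1.65 to 2.99 in total RNA and 1.31 to 3.11 in RPF, and in pairs 2 and 3 none exceeded 0.21 in total RNA or 0.60 in RPF in the direction of shOSGEP. Parp14 (ENSMUSG00000034422, chr16:35832874-35871544, minus strand) was at 14.5, 4.90 and 8.8 CPM in total RNA of shCtr and 116, 4.74 and 9.77 CPM in shOSGEP. Its fitted change was 2.20 ± 1.16 in total RNA and 2.22 ± 1.05 in RPF (unadjusted p of 0.10 and 0.072 in edgeR), and -0.39 and -0.040 without shOSGEP replicate 1. Parp12 was at 42.8, 32 and 42.3 CPM in shCtr and 135, 35.8 and 37.9 CPM in shOSGEP, a fitted change of 0.83 ± 0.52 (unadjusted p of 0.16) that was -0.093 without shOSGEP replicate 1. Dtx3l was at 20.2, 14.1 and 19.3 CPM in shCtr and 68.0, 13.6 and 16.1 CPM in shOSGEP, and Parp9 at 12.3, 7.76 and 9.14 CPM and 52.9, 7.31 and 10.6 CPM. Parp9 and Dtx3l share 458 bases of exon on opposite strands.

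The 11 other genes are less alike in function, and 9 passed the filter in each assay. Trim30a (ENSMUSG00000030921, chr7:104409025-104465193, minus strand), a tripartite-motif protein, was at 6.84, 3.51 and 4.4 CPM in total RNA of shCtr and 111, 3.53 and 6.30 CPM in shOSGEP. Its footprints were 2.25, 1.21 and 1.18 CPM in shCtr and 53.3, 1.33 and 1.68 CPM in shOSGEP, and every pair was higher in shOSGEP in both assays. The fitted change was 3.03 ± 1.27 in total RNA and 3.59 ± 1.45 in RPF (unadjusted p of 0.049 and 0.042, adjusted p of 0.975 and 0.9998 in edgeR), against -0.013 and -0.046 without shOSGEP replicate 1. Ifi35, which was also higher in every pair, was at 8.06, 3.53 and 8.58 CPM in total RNA of shCtr and 56.8, 5.18 and 9.04 CPM in shOSGEP. Its exons share 290 bases with the antisense gene Gm11626. Tor3a, an ATPase of the endoplasmic reticulum, was at 16.2, 9.93 and 12.8 CPM in shCtr and 60.4, 11.3 and 14.7 CPM in shOSGEP.

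Xaf1, a promoter of cell death, was at 2.67, 1.82 and 2.15 CPM in total RNA of shCtr and 25.8, 3.69 and 2.75 CPM in shOSGEP, so that the lowest shOSGEP value was barely above the highest shCtr value. Its fitted change was 2.28 ± 0.87 (unadjusted p of 0.035 in edgeR), and 0.53 without shOSGEP replicate 1, and in RPF its 138 reads in shOSGEP replicate 1 stood against 3 to 20 elsewhere. Ifi27 was at 33.2, 8.92 and 10.5 CPM in shCtr and 201, 8.68 and 15.0 CPM in shOSGEP in total RNA, and its footprints reached 208 CPM in shOSGEP replicate 1. Rtp4 and Sp100 reached 39.0 and 26.6 CPM in total RNA of that library and were at 2.52 CPM or less in the other 5. Trim21, a cytosolic antibody receptor, was at 5.12, 4.94 and 5.99 CPM in total RNA of shCtr and 15, 5.83 and 4.75 CPM in shOSGEP, a fitted change of 0.67 ± 0.45 (unadjusted p of 0.18), beside 1.43 ± 0.67 in RPF (unadjusted p of 0.070). Without shOSGEP replicate 1 these were -0.025 and 0.32.

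Lgals3bp (ENSMUSG00000033880, chr11:118392751-118402092, minus strand), a secreted glycoprotein, had the highest level per length of the 44 genes, with a shCtr mean of 80.7 CPM per kilobase of annotated exon in total RNA, followed by Bst2 with 23.0 and Psme1 with 21. It was at 328, 182 and 180 CPM in shCtr and 475, 161 and 187 CPM in shOSGEP. In RPF it was at 85.1, 41.4 and 21.6 CPM in shCtr and 192, 31.3 and 17.9 CPM in shOSGEP. In both assays the replicate 1 libraries of both genotypes were the highest, and the paired difference differed in sign between pairs, with fitted changes of 0.26 ± 0.46 and 0.70 ± 0.93 (unadjusted p of 0.60 and 0.47), and -0.41 and -1.02 without shOSGEP replicate 1. Epsti1 had at most 3 reads in any of the 12 libraries. Ifi44 had 70 total RNA reads in shOSGEP replicate 1 and 0 in the other 5 libraries, but its RPF reads numbered 133, 0 and 207 in shCtr and 29, 0 and 220 in shOSGEP. Its footprints therefore did not follow its RNA, with a change in RPF of -1.62 (log2) in pair 1.

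IRF1 is a transcription factor induced by interferon gamma, and PSME1 and PSME2 form the PA28 cap that aids antigen processing by the proteasome. These 3 genes had the lowest group median in pair 1, 1.66 in total RNA and 1.96 in RPF. Irf1 (ENSMUSG00000018899, chr11:53770014-53778374, plus strand) was at 13.1, 11.8 and 22.8 CPM in total RNA of shCtr and 50.7, 15.7 and 21.8 CPM in shOSGEP, with a fitted change of 0.89 ± 0.48 (unadjusted p of 0.11 in edgeR), and 0.23 without shOSGEP replicate 1. Psme1 was at 49.1, 38.9 and 50.9 CPM in shCtr and 97.5, 41.4 and 47.3 CPM in shOSGEP, a fitted change of 0.42 ± 0.34 (unadjusted p of 0.25) that was -0.070 without shOSGEP replicate 1. Psme2 was at 16.4, 11.3 and 14.4 CPM in shCtr and 51.8, 13.4 and 13.7 CPM in shOSGEP. In pair 3 of total RNA all 3 genes were lower in shOSGEP, with changes of -0.07 to -0.10.

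The control of replicate 1 was also above the other controls. In total RNA, shCtr replicate 1 was the highest of the 3 shCtr libraries for 29 of the 40 genes, against 33.4% of all genes tested, and in RPF for 34 of 40, against 32.2%. The median excess of shCtr replicate 1 over the mean of shCtr replicates 2 and 3 was 0.65 (log2, 35 of 40 higher) in total RNA and 0.72 (34 of 40) in RPF, against 0.00 and 0.01 over all genes. The excess was 1.88 for Gbp7, 1.87 for Rtp4, 1.84 for Usp18 and 1.77 for Ifi27 in total RNA, and it was -0.34 for Samhd1, -0.33 for Irf1 and -0.25 for Herc6. Both genotypes of replicate 1 thus tended to have higher levels than the same genotype in the other replicates. Whether replicate 1 differs in its handling cannot be told from the labels.

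Footprint changes followed RNA changes in pair 1. Across the 39 genes that passed the filter in both assays, the changes in RPF and total RNA of pair 1 had a Pearson r of 0.87 and a Spearman rho of 0.88, against 0.70 and 0.72 over all 12560 genes. In pair 2 they were 0.38 and 0.40 and in pair 3 0.16 and 0.22, where most changes were near 0. These are correlations across genes of the same libraries, which share their normalisation, and genes are not independent replicates.

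**Figure D5:**
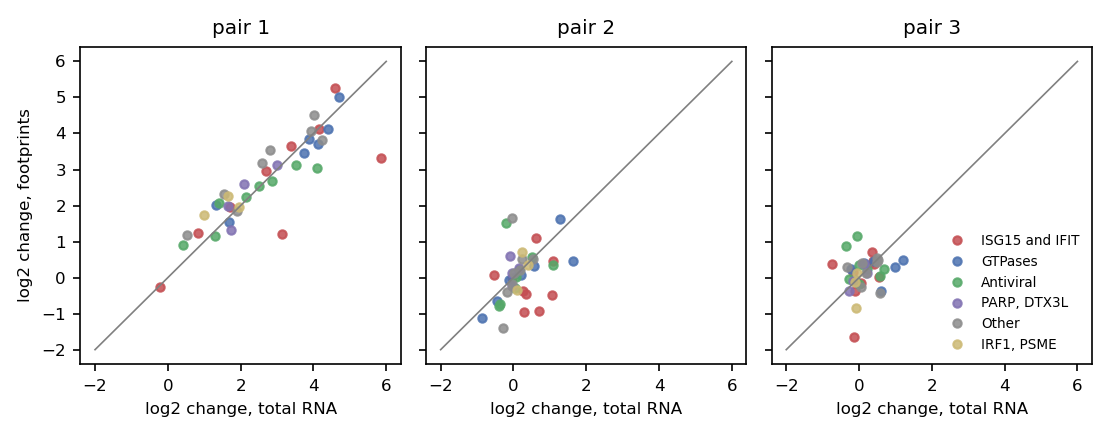
Each point is one of the 39 genes, with its log2 change in total RNA on the x axis and in footprints on the y axis for pairs 1, 2 and 3, coloured by functional group, and the line marks equal change. In pair 1 the points ran along the line, with Usp18 and Ifit3b below it, and in pairs 2 and 3 they clustered around 0.

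No difference in the ratio of footprints to RNA was detected for these genes at this replicate error. In the test of the interaction between assay and genotype, 0 of 39 genes had an adjusted p under 0.05 in edgeR, where 0% of all genes did, and 0 of 39 were higher at an unadjusted p under 0.05, against 0.0717% of all genes. The median fitted change in translational efficiency was 0.02 (log2), with 21 of 39 genes higher, and it was -0.08 without shOSGEP replicate 1. The pair medians were 0.12, -0.12 and -0.01, with interquartile ranges of -0.18 to 0.50, -0.40 to 0.12 and -0.30 to 0.26. Genes with a higher ratio in all 3 pairs were Ifit3, Parp12, Parp14 and Trim21 (4 of 39, against 11.6% of all genes). The median log2 ratio in the 6 cell samples was -1.25, -1.15 and -1.39 in shCtr and -1.22, -1.34 and -1.53 in shOSGEP, beside -1.31 to -1.39 over all genes.

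The smallest unadjusted p for translational efficiency was that of Usp18, with a fitted change of -2.86 ± 2.72 (unadjusted p of 0.31, adjusted p of 1.00 in edgeR), and -0.047 without shOSGEP replicate 1. Its ratio of RPF to RNA CPM was 4.42, 1.5 and 12.3 in shCtr and 0.749, 0.327 and 10.6 in shOSGEP, a spread within each genotype larger than the difference between them. Trim21 came next, with ratios of 0.396, 0.332 and 0.301 in shCtr and 0.690, 0.404 and 0.469 in shOSGEP. All 3 of its shOSGEP ratios were above the shCtr ratios, with a fitted change of 0.75 ± 0.84 (unadjusted p of 0.39), and 0.34 without shOSGEP replicate 1. Ifit2 had steady ratios, 0.462, 0.449 and 0.526 in shCtr and 0.449, 0.457 and 0.438 in shOSGEP, as did Tor3a, with 0.342 to 0.392 in all 6 samples. Isg15 varied more, from 0.246 to 0.762, with footprints of 0.495 to 1.46 CPM outside shOSGEP replicate 1.

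Genes of RNA sensing and interferon signalling were examined beside the effectors. Of 20 such genes, 18 passed the filter in each assay, and 0 had an adjusted p under 0.05 in edgeR, where 0% of all genes tested did. At an unadjusted p under 0.05, 1 was higher in total RNA, against 1.52% of all genes. In RPF 1 was higher, against 0.754% of all genes, and 1 was lower. Of 13529 genes tested in RPF, 139 passed this limit in either direction, 102 of them higher. Counts of 1 gene are too small to set apart from these shares. The median change of the 18 genes in total RNA was 0.69 in pair 1, 0.01 in pair 2 and 0.02 in pair 3, smaller than that of the effectors in pair 1. The RIG-I gene Ddx58 was at 18.3, 5.15 and 11.5 CPM in total RNA of shCtr and 188, 7.43 and 12.4 CPM in shOSGEP. Its footprints were at 5.69, 2.73 and 2.14 CPM in shCtr and 78.2, 1.36 and 2.49 CPM in shOSGEP. The footprint changes were 3.76, -0.97 and 0.21 (log2) in pairs 1, 2 and 3. Ifih1, which encodes MDA5, was at 9.68, 5.33 and 7.56 CPM in total RNA of shCtr and 55.1, 7.61 and 8.95 CPM in shOSGEP. Dhx58, which encodes their regulator LGP2, was at 2.01, 1.22 and 1.26 CPM in total RNA of shCtr and 59.8, 1.01 and 1.32 CPM in shOSGEP.

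The transcription factor genes Stat2, Irf9 and Irf7 were highest in shOSGEP replicate 1 of total RNA. Stat2 was at 7.28, 5.55 and 8.29 CPM in total RNA of shCtr and 34.5, 5.72 and 7.82 CPM in shOSGEP. Irf9 was at 7.67, 3.55 and 3.49 CPM in shCtr and 51.7, 3.41 and 5.76 CPM in shOSGEP. Irf7, which did not pass the filter, was at 18.8 CPM in total RNA of shOSGEP replicate 1 and at 0.54 CPM or less in the other 5 libraries. Of the 18 genes, 8 were higher by over 1 (log2) in pair 1 of each assay, against 10.7% of all genes in total RNA and 12.8% in RPF. In pairs 2 and 3 it was 0, where the shares of all genes were 2.78% and 3.4% for total RNA, and 4.82% and 6.76% for RPF. The changes of Mavs, Ifnar1, Ifngr2 and Jak1 lay between -0.06 and 0.10 in pair 1 of total RNA. Other receptor and kinase genes were higher there, Ifnar2 by 0.50, Ifngr1 by 0.75, Jak2 by 0.32 and Tyk2 by 0.62. In footprints of pair 1 the changes were -0.03 for Mavs, -0.62 for Ifnar1, -1.22 for Ifngr2 and 0.31 for Jak1. Ifnb1, the interferon beta gene, had 0 reads in all 12 libraries, which allows no more than 0.062 CPM in total RNA and 0.248 CPM in RPF. In footprints Ifngr2, a subunit of the interferon gamma receptor, was lower in all 3 pairs, by a fitted -0.82 ± 0.27 (unadjusted p of 0.020, adjusted p of 0.9998 in edgeR). Its footprints changed by -0.33 in pair 2 and -0.94 in pair 3, and pair 1 rests on 105 reads in shOSGEP replicate 1. Ifngr2 is the gene counted above as lower, picked from the 18 after its values were seen. Its fitted change without that library is not given.

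The changes in pairs 2 and 3 were small beside those of pair 1. In total RNA the group medians in pairs 2 and 3 were 0.35 and 0.06 for ISG15 and IFIT genes, 0.21 and 0.40 for GTPases, 0.01 and 0.35 for the other genes and 0.25 and -0.08 for the IRF1 and PA28 group. Of the 39 genes that passed the filter in both assays, those with the same direction in all 3 pairs of each were Ifit1, Ifit3, Gbp2, Gbp7, Rsad2, Ifi35, Trim30a and Tor3a, all higher in shOSGEP (8 of 39, against 6.88% of all genes), and Ifit2, which was lower. The count of 8 also includes pair 1, where nearly all members were higher, so it does not measure pairs 2 and 3 alone. Xaf1, which did not pass the filter in RPF, was also higher in every pair, by 0.19 to 4.46 in RPF. Of the higher ones, Gbp2 and Gbp7 were furthest apart in pairs 2 and 3 of total RNA, by 1.62 and 0.98 and by 1.28 and 1.22 (log2). In RPF the same genes differed by 0.45 and 0.30 and by 1.64 and 0.48, at under 1 CPM in all 4 libraries.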

How the data were processed

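Total RNA and RPF libraries of B16F10 cells were analysed from gene tables of raw read counts made by the authors and deposited for each sample, with 55487 Ensembl gene IDs per table. The submitters' processing notes name FastQC 0.11.9, Trim Galore 0.6.6, cutadapt and STAR, with the builds GRCm38 and GRCm39. The counting step, annotation, use of strand and treatment of reads with several matches are not given in the sources used here. Gene positions were taken from GENCODE M21 (GRCm38), where 55141 IDs were found, and promoters from RefSeq (GRCm38.p6). Libraries were grouped by their labels, and shOSGEP was compared with shCtr in each assay with edgeR 4.0.16 in R 4.3.3 (quasi-likelihood test, TMM factors, filterByExpr, Benjamini-Hochberg adjustment at 0.05). Translational efficiency was the interaction of assay and genotype over 12 libraries. The SE of a fitted change is that implied by its quasi-likelihood F statistic, the size of the change divided by the square root of F. Log2 CPM used a prior count of 2. Replicates were not duplicates of each other. Deviations from group means of same-numbered libraries correlated at 0.29 to 0.54 in total RNA and 0.51 to 0.66 in RPF, so changes were also computed within pairs. The main fits had no replicate block. With a block the median fitted change of the members was 1.00 in total RNA and 0.89 in RPF, against 1.83 and 1.64 without it. The fits were tested on simulated counts in which all replicates varied alike, with no pairing and no outlying library. How they perform with such libraries was not tested.

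Alternatives were RLE factors, no filter, DESeq2 1.42.0, a replicate block, a prior count of 0.5, TMM factors from protein-coding genes, and leaving out each library and each pair. The members and gene lists were chosen with earlier results of these data known. Fitted changes are given for the gene of each functional group with the highest mean CPM and that with the smallest unadjusted p in total RNA, for Isg15 and Ifit1, and for the 2 smallest p in RPF and in translational efficiency. Values per library are given for these genes, the 3 with the highest mean CPM in each group, those with the same direction in all 3 pairs of both assays, and those lower in any pair of total RNA by over 0.5. Values given for other members and for Dhx58, Mavs, Ifnar1, Ifnar2, Ifngr1, Ifngr2, Jak1, Jak2 and Tyk2 were chosen after they were seen. The values of 1 gene of the pathway list are not reported here.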

Additional observations from a re-analysis of the deposited data

How the results depend on the processing

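No member was called with RLE factors or a replicate block in edgeR, or with DESeq2. Over all genes, 0 were called in total RNA against 8 with DESeq2 and 1 with a replicate block, and 0 in RPF against 229 without the filter and 1 with DESeq2. Of the 15 members called in RPF without the filter, Isg15, Ifit1, Usp18, Gbp2, Parp14 and Trim30a have fitted changes in the text. Leaving out each library or pair, the median change of the members ranged from -0.069 to 2.29 in total RNA, from -0.088 to 2.17 in RPF and from -0.12 to 0.19 in translational efficiency. Of 46 fitted results of named members, 30 reversed under some alternative, 28 of them without shOSGEP replicate 1, and 528 of 598 alternative values kept their direction and side of the threshold. The log2 changes that reversed ranged, over these omissions, in total RNA from -0.60 to 6.28 for Usp18, -0.11 to 3.77 for Isg20, -0.093 to 1.16 for Parp12, -0.39 to 2.73 for Parp14, -0.41 to 0.60 for Lgals3bp, -0.056 to 1.02 for Trim21, -0.013 to 3.56 for Trim30a and -0.070 to 0.64 for Psme1. In RPF they ranged from -0.59 to 5.05 for Isg15, -0.090 to 3.74 for Ifit1, -0.64 to 3.23 for Usp18, -0.024 to 3.4 for Isg20, -0.24 to 0.37 for Samhd1, -0.0011 to 1.46 for Parp12, -0.040 to 2.72 for Parp14, -1.02 to 1.34 for Lgals3bp, -0.046 to 4.13 for Trim30a and -0.51 to 1.39 for Psme1. In translational efficiency, where no value was called, they ranged from -0.71 to 0.92 for Isg15, -0.64 to 0.28 for Ifit1, -0.16 to 0.016 for Ifit2, -0.87 to 0.58 for Gbp2, -0.12 to 0.52 for Irgm1, -0.90 to 0.35 for Isg20, -0.25 to 0.18 for Samhd1, -0.16 to 0.35 for Parp14, -0.60 to 0.74 for Lgals3bp, -0.025 to 0.63 for Trim30a, -0.11 to 0.12 for Irf1 and -0.44 to 0.78 for Psme1. Translational efficiency also reversed with a replicate block for Isg15 (-0.10), Ifit1 (-0.28), Gbp2 (-0.31), Samhd1 (-0.0041) and Irf1 (0.046), without the filter for Samhd1 (-0.043) and Parp14 (-0.092), and with RLE factors for Irf1 (0.00026). The cause was not tested. The replicate block changed no other call. Members under 1 CPM outside shOSGEP replicate 1 rest on few footprints.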
